A study of Homo sapiens with 6 samples.

Results

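The hypoxia response and the enzymes of glycolysis were followed as 38 genes in LX2, an established human line with the features of activated hepatic stellate cells, after knockdown of the mitotic kinase AURKA. The 38 genes were chosen by name, as subunits and targets of the hypoxia-inducible factors (HIF), glucose and lactate transporters and the enzymes of each glycolytic step, and all 38 were found among the 58243 Ensembl genes of the deposited table. They comprised 3 HIF subunits, 12 non-metabolic HIF targets, 4 genes of transport and of the pyruvate gate, and 19 glycolytic enzymes. Cells received either small interfering RNA targeting AURKA (siAURKA, labelled as AURKA knockdown) or control small interfering RNA (siNC, labelled as wild type), and RNA was sequenced 48 h later in 3 libraries per group. All libraries came from 1 cell line grown in serum-containing medium, both groups were transfected, and the labels name no change in oxygen supply. The labels do not say whether replicates were separate cultures, so each p-value reflects the spread of these libraries alone, part or all of which may be technical.

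HIF is a pair of proteins, an alpha subunit (HIF1A or EPAS1) and ARNT, that binds hypoxia response elements in DNA. In oxygenated cells, prolyl hydroxylases of the EGLN family mark the alpha subunit for destruction, so HIF activity is set largely at the protein and not at the transcript. Its targets include secreted vascular factors, mitophagy receptors, the glucose transporter SLC2A1 and most steps from glucose to lactate, a route that activated stellate cells are known to use.

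Library totals ran from 33196829 to 53357402 units in siAURKA and from 23366242 to 41764470 units in siNC. A unit of the deposited estimated counts may be less than 1 fragment. Levels are given as CPM, counts scaled to library size, after TMM scaling, which corrects for differences in composition between libraries. In these bulk libraries, fewer cells expressing a gene and less of its RNA per cell cannot be told apart. AURKA itself, on chromosome 20 at 56369389 to 56392337 (GRCh38), was at 49.8, 47.0 and 51.1 CPM in siAURKA replicates 1, 2 and 3, against 135.8, 128.0 and 95.0 CPM in siNC. AURKA levels did not overlap between the groups, a log2 difference of -1.28 (SE 0.28). DESeq2 called AURKA (adjusted p = 0.0314) and edgeR did not (adjusted p = 0.9999). Same-numbered libraries deviated together from their group means, so each member is also given as 3 pairs, siAURKA over siNC of the same number. The library of siNC replicate 2 differed from the rest: its total was the smallest, its counted transcripts averaged 53.3% GC (49.2% to 52.2% elsewhere), and its nuclear RNA MALAT1 was at 72.5 CPM (145.3 to 410.5 CPM elsewhere). All 18 stellate cell and myofibroblast markers had counts in at least 1 library, but 3 averaged below 1 CPM. Their sum ran from 7024 to 11998 CPM in siAURKA and 7667 to 12728 CPM in siNC. Most of it was vimentin (VIM), at 4619 to 9189 CPM in siAURKA and 4491 to 9999 CPM in siNC. COL1A1 was at 1319 to 1632 CPM in siAURKA and 1071 to 1880 CPM in siNC. ACTA2 was at 18.7 to 20.4 CPM in siAURKA and 11.2 to 17.3 CPM in siNC, and COL1A2 at 6.90 to 11.9 CPM in siAURKA and 2.86 to 5.15 CPM in siNC. LRAT, the vitamin A-esterifying enzyme of quiescent stellate cells, was at 0 in 5 libraries and at 0.0477 CPM in siNC replicate 2. Of 10 hepatocyte markers, 4 (ALB, APOB, FGB and TTR) were at 0 in every library, and the summed level of the 10 was 19.1 to 35.3 CPM in siAURKA and 16.5 to 46.3 CPM in siNC. Summed markers of cholangiocytes ran from 41.6 to 62.7 CPM in siAURKA and 48.8 to 97.9 CPM in siNC, those of endothelium from 87.1 to 165 CPM in siAURKA and 95.9 to 179 CPM in siNC, and those of macrophages and leukocytes from 58.2 to 106 CPM in siAURKA and 49.0 to 125 CPM in siNC. The most abundant in these 3 lists were SOX9, TIE1 and CD68, averaging 53.7, 119 and 61.2 CPM over all libraries. The part of these marker levels in the results was not tested.

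More members were lower than higher after siAURKA, by modest amounts. Adrenomedullin (ADM) was 2.09-fold lower, and the lactate exporter SLC16A3, the neuronal-type enolase ENO2 and the MYC antagonist MXI1 were lower in all 3 pairs, as was the glucose transporter SLC2A1. HIF1A, ARNT, GAPDH and PGAM1 had log2 fold changes between -0.06 and 0.08, and only ANKRD37 and PFKL were higher in all 3 pairs. The fit covered 18775 genes, of which 36 were members, since CA9 and EGLN3 failed the filter on low counts. Of the 36, 17 were lower in all 3 pairs (47.2%), against 17.6% of all tested genes, and 2 were higher in all 3 pairs (5.56%), against 17.9%. Among tested genes at a mean of 100 CPM or more, a level that many glycolytic enzymes exceed, 24.3% were lower in all 3 pairs. Without pair 1, 26 members were lower in both other pairs (28.3% of all tested genes). Without pair 2 the number was 21 (29.7% of all tested genes), and without pair 3 it was 20 (26.6%).

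The test without pairing called no member. edgeR's quasi-likelihood test called 0.0% of all tested genes and 0 of the 36 members at an adjusted p of 0.05, each member having an adjusted p of 0.9999. Before adjustment 2 members had an edgeR p below 0.05, ADM and ENO2, both lower, against 1.26% of all tested genes (0.639% lower). edgeR with the replicate number as a block also called 0.0% of genes and 0 members, with 9 members below 0.05 before adjustment (8 lower, 1 higher) against 8.48% of all tested genes (4.55% lower). DESeq2 called 0.0905% of genes (0.0426% lower, 0.0479% higher) and 0 members. Before adjustment 3 members, ADM, MXI1 and ENO2, had a DESeq2 p below 0.05, all lower, against 1.82% of all tested genes (0.991% lower). DESeq2 with the replicate block called 4 members, ADM, SLC16A3, ENO2 and MXI1, all lower, against 1.31% of all tested genes (0.81% lower, 0.501% higher). With 1 pair left out, DESeq2 with the block called 0 members without pair 1 (0.674% of genes), 0 without pair 3 (0.292%), and ADM, SLC16A3 and LDHA without pair 2 (1.46%). With all 3 pairs, 11 members (10 lower, 1 higher) had an unadjusted p below 0.05 by DESeq2 with the block, against 9.7% of all tested genes (5.1% lower).

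**Figure D1:**
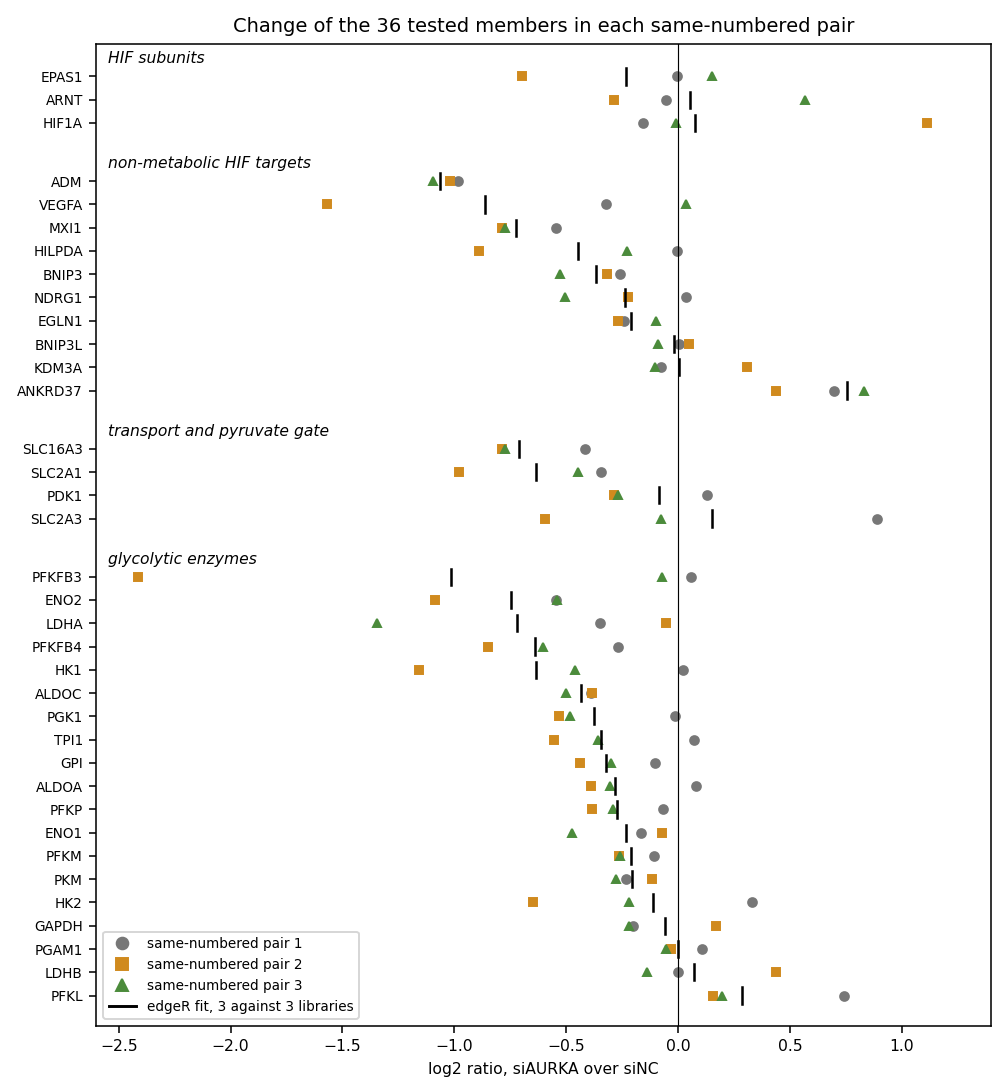
Log2 ratio of siAURKA over siNC (horizontal axis) for the 36 tested members, grouped by role and sorted within each group by the edgeR log2 fold change (black ticks). Points are the 3 same-numbered pairs. Most points lie left of 0, pair 2 holds the greatest difference for 22 of the 36 members, and ADM has 3 nearly equal values from -1.09 to -0.98.

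The HIF subunits did not share a direction. HIF1A (chromosome 14), the oxygen-regulated alpha subunit, was at 515, 202 and 243 CPM in siAURKA replicates 1, 2 and 3, against 573, 93.0 and 244 CPM in siNC. Both number 1 libraries were high, and the groups overlapped. The log2 ratio of HIF1A was -0.16 in pair 1, 1.11 in pair 2 and -0.01 in pair 3. Leaving out 1 library moved its edgeR log2 fold change from 0.08 to anywhere between -0.46 and 0.93. Such fits were unpaired and kept the same-numbered partner of the library left out. Where both libraries of a number deviated together, leaving out 1 of them also shifted the balance of numbers between groups. EPAS1 (HIF-2 alpha), the other oxygen-regulated alpha subunit, was at 107, 102 and 97.6 CPM in siAURKA, against 107, 165 and 87.9 CPM in siNC. Only siNC replicate 2 was far from the rest, and without it the log2 fold change of EPAS1 was 0.07 in place of -0.23. ARNT, the constitutive partner, was at 50.7, 29.8 and 38.8 CPM in siAURKA and 52.6, 36.4 and 26.0 CPM in siNC, with a log2 fold change of 0.05 (SE 0.37).

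**Figure D2:**
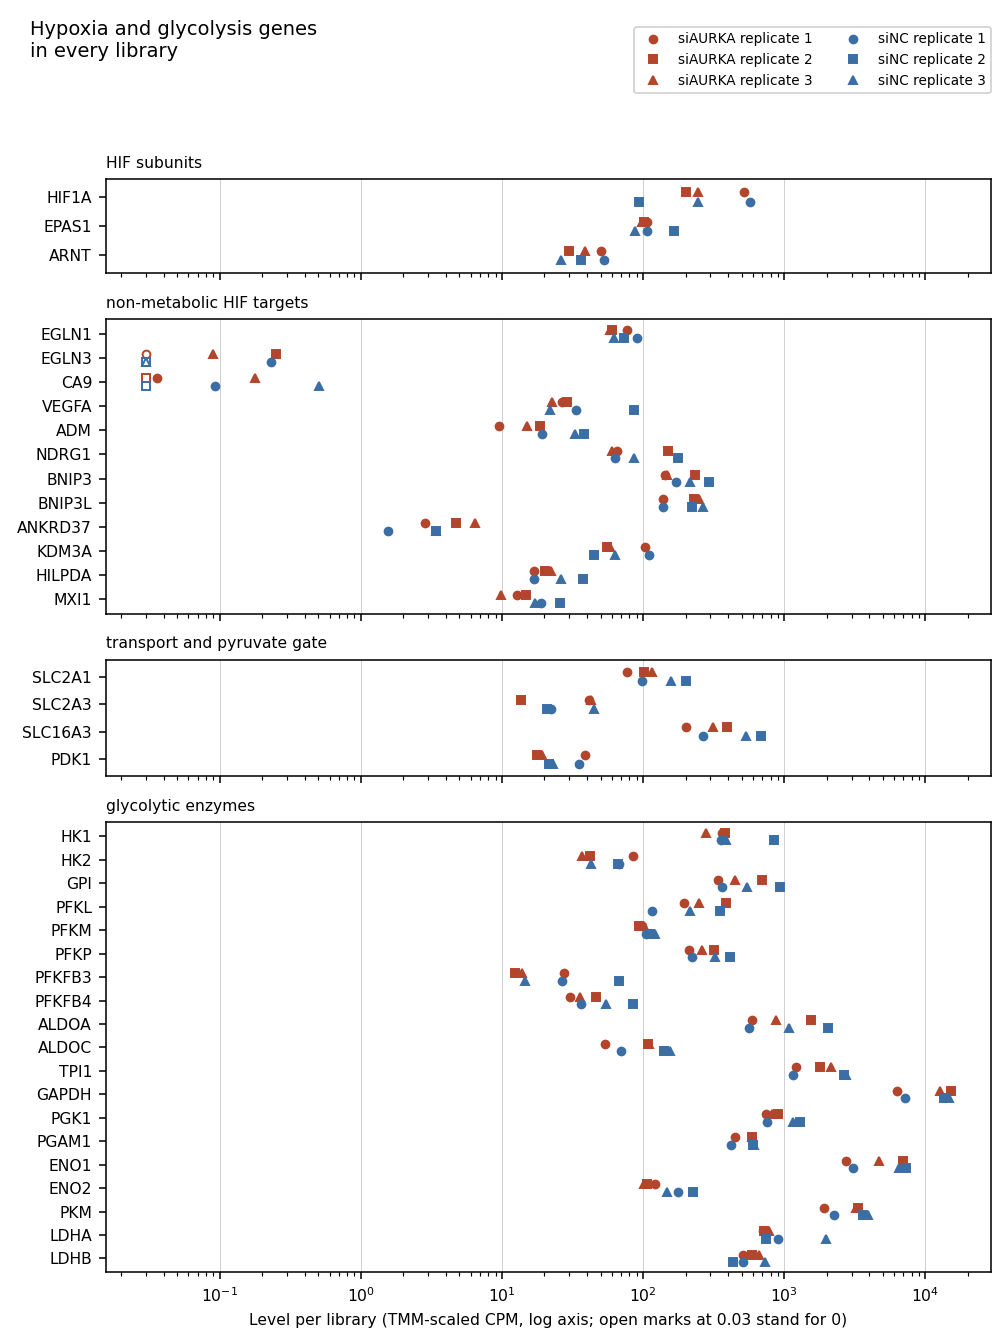
TMM-scaled CPM of all 38 members in the 6 libraries (horizontal log axis), siAURKA above siNC within each row, with symbols for replicates 1, 2 and 3. CA9 and EGLN3 lie below 1 CPM, and GAPDH is the highest by CPM at 6291 to 15184 CPM in siAURKA and 7231 to 14743 CPM in siNC.

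The oxygen sensors among the HIF targets were close to their control levels or barely detected. EGLN1, the main prolyl hydroxylase, was at 77.0, 60.5 and 58.1 CPM in siAURKA replicates 1, 2 and 3, against 91.0, 73.1 and 62.2 CPM in siNC. It was lower in all 3 pairs, by log2 ratios of -0.24, -0.27 and -0.10, but the groups overlapped and the log2 fold change of -0.21 (SE 0.29) was -0.05 without siNC replicate 1. EGLN3, a hydroxylase usually induced strongly by hypoxia, was at 0, 0.249 and 0.0890 CPM in siAURKA and 0.232, 0 and 0 CPM in siNC. CA9, a cell-surface carbonic anhydrase used as a hypoxia marker, was at 0.0361, 0 and 0.178 CPM in siAURKA and 0.0927, 0 and 0.504 CPM in siNC. If 1 fragment is worth 4 units, 3 fragments correspond to 0.225 to 0.361 CPM in siAURKA libraries and 0.287 to 0.514 CPM in siNC libraries. Against its own library's floor, CA9 was above only in siNC replicate 3 and EGLN3 in none. That floor covers counting error only.

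Secreted factors were led by ADM, the vasodilator peptide adrenomedullin (ENSG00000148926, chromosome 11). It was at 9.49, 18.5 and 15.1 CPM in siAURKA replicates 1, 2 and 3, against 19.3, 37.9 and 32.9 CPM in siNC. Every siAURKA library was below every siNC library, though siAURKA replicate 2 was close to siNC replicate 1. ADM had the smallest range across pairs of the tested members, with log2 ratios of -0.98, -1.02 and -1.09. ADM averaged 14.4 ± 4.53 CPM in siAURKA and 30.01 ± 9.64 CPM in siNC (SD, n = 3), a log2 fold change of -1.06 (SE 0.39). DESeq2 with the replicate block gave an adjusted p of 1.317e-05 for ADM, while edgeR with the block gave 0.533. Leaving out 1 library kept the log2 fold change of ADM between -1.30 and -0.84. VEGFA, the vascular endothelial growth factor, was at 26.8, 28.8 and 22.6 CPM in siAURKA and 33.6, 86.6 and 22.0 CPM in siNC. Its difference came from siNC replicate 2, without which the log2 fold change was -0.09 in place of -0.86.

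MXI1, which encodes a MAX-binding repressor that opposes MYC (ENSG00000119950, chromosome 10), was at 12.8, 14.7 and 9.88 CPM in siAURKA replicates 1, 2 and 3, against 18.8, 25.7 and 17.3 CPM in siNC. All siAURKA values were below all siNC values. Pair log2 ratios were -0.54, -0.79 and -0.77, with a log2 fold change of -0.73 (SE 0.32). DESeq2 with the replicate block gave MXI1 an adjusted p of 0.0411. Groups did not overlap, with siAURKA below siNC, for 4 of the 36 members (ADM, MXI1, PFKM and ENO2), against 2.52% of all tested genes, and for 0 members with siAURKA above siNC, against 3.33%.

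The mitophagy receptors differed from each other. BNIP3 was at 142, 233 and 148 CPM in siAURKA replicates 1, 2 and 3, against 170, 291 and 214 CPM in siNC, lower in all 3 pairs with overlapping groups. Its log2 fold change of -0.37 (SE 0.34) ran from -0.63 when siAURKA replicate 2 was left out to -0.13 when siNC replicate 2 was. Its paralogue BNIP3L was at 138, 229 and 250 CPM in siAURKA and 137, 221 and 266 CPM in siNC, and its pair log2 ratios lay between -0.09 and 0.05. The ratio of BNIP3 to BNIP3L counts in a library was 1.03, 1.02 and 0.593 in siAURKA and 1.24, 1.32 and 0.804 in siNC. That ratio was lower in all 3 pairs, but both number 3 libraries were low and the groups overlapped (p = 0.4, two-sided exact permutation test, where 0.1 is the smallest possible).

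The remaining targets were mixed. ANKRD37, an ankyrin repeat protein, was at 2.83, 4.76 and 6.47 CPM in siAURKA replicates 1, 2 and 3, against 1.55, 3.39 and 3.42 CPM in siNC. Of the 10 tested non-metabolic HIF targets, only ANKRD37 was higher in all 3 pairs, with log2 ratios of 0.70, 0.44 and 0.83. However, siAURKA replicate 1 lay below 2 siNC libraries. Its log2 fold change was 0.75 (SE 0.48), and 35.2% of its exonic bases lie in exons of other genes, so its counts are uncertain. HILPDA, a lipid droplet protein, was at 16.9, 20.2 and 22.4 CPM in siAURKA and 17.0, 37.7 and 26.3 CPM in siNC, with a pair 1 ratio near 0 and a log2 fold change of -0.45 that was -0.12 without siNC replicate 2. NDRG1, a stress-responsive gene, was at 65.0, 151 and 60.7 CPM in siAURKA and 63.5, 176 and 86.3 CPM in siNC. Both number 2 libraries were high in NDRG1, and the groups overlapped. The histone demethylase KDM3A was at 104, 55.3 and 58.5 CPM in siAURKA and 109, 44.6 and 62.9 CPM in siNC, with pair log2 ratios of -0.08, 0.31 and -0.10 and a log2 fold change of 0.004 (SE 0.43).

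Promoter sequences were taken from RefSeq (GRCh38.p14) for the 4 members called by DESeq2 with the replicate block, for ANKRD37, the non-metabolic member that was higher in all 3 pairs, and for LDHA, a textbook HIF target. Each is the 250 bases before a transcript start, on the gene's strand. Where several starts are listed, the one with the most ACGTG matches is shown. Capitals mark the hypoxia response element cores ACGTG and GCGTG on either strand, so CACGT and CACGC are capitals too.
ADM, chr11:10304823-10305072, plus strand: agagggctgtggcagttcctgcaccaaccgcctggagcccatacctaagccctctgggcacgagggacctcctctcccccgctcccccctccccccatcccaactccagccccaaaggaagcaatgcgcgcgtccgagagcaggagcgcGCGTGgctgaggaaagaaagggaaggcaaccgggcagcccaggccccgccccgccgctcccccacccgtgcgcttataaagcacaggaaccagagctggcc
MXI1, chr10:110209981-110210230, plus strand: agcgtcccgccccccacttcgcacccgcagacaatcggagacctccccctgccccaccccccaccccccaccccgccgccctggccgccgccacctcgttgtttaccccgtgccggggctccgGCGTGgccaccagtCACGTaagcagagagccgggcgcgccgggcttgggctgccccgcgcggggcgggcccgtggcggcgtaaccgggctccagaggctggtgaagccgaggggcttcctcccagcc
SLC16A3, chr17:82228792-82229041, plus strand: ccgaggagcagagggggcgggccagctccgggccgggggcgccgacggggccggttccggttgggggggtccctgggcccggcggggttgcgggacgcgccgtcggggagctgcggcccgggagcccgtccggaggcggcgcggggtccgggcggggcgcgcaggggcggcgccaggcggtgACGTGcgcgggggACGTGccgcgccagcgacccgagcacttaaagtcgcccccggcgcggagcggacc
ENO2, chr12:6914330-6914579, plus strand: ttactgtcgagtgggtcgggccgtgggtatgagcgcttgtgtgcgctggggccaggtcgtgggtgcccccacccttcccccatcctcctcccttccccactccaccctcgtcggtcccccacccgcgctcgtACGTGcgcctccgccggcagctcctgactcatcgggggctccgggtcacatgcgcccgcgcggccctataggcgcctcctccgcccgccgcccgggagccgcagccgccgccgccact
ANKRD37, chr4:185396591-185396840, plus strand: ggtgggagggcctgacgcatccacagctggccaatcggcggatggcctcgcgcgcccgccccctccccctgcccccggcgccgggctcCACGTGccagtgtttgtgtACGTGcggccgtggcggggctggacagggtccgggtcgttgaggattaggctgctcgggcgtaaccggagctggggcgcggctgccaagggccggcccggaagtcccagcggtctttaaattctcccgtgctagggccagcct
LDHA, chr11:18394313-18394562, plus strand: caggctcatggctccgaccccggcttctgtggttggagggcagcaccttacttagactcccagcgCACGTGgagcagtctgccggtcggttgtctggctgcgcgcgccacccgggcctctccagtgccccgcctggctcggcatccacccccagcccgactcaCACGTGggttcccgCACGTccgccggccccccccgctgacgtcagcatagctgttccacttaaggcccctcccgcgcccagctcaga

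Among the 6 promoters shown, the cores were present in genes that were lower and in ANKRD37, which was higher. ADM held GCGTG in 1 place and no ACGTG, ENO2 held ACGTG in 1 place, and MXI1 and SLC16A3 each held cores in 2 places. ANKRD37 held them in 2 places and LDHA in 3, counting a palindromic CACGTG, the E-box bound by MYC and MAX, as 1 place. Of the 38 members, 33 had promoters in the table, with 63 starts in all. ACGTG was found in 22 of the 63 starts (34.9%), against 18.5% of 35116 starts in the table, and GCGTG in 22 (34.9%), against 32.2%. The E-box CACGTG, whose matches are also ACGTG matches, was found in 8 member starts (12.7%), against 6.34%. Of the matched members, ARNT, EGLN3, SLC2A1, PGAM1, PKM and LDHB held neither core in this window. ACGTG was found in 5 of 11 starts of non-metabolic targets (45.5%) and 15 of 40 starts of glycolytic enzymes (37.5%). The deposited counts are per gene and do not tell which start was used.

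Of the 4 genes of transport and the pyruvate gate, the lactate exporter SLC16A3 and the glucose importer SLC2A1 were lower in all 3 pairs, and SLC2A3 and PDK1 were lower in pairs 2 and 3 only. SLC16A3, which encodes the lactate exporter MCT4 (ENSG00000141526, chromosome 17), was at 200, 395 and 314 CPM in siAURKA replicates 1, 2 and 3, against 267, 683 and 536 CPM in siNC. The number 1 libraries were lowest in both groups, so the groups overlapped, but each siAURKA library was below its numbered partner. Pair log2 ratios were -0.42, -0.79 and -0.77, and DESeq2 with the replicate block gave a log2 fold change of -0.68 (SE 0.18) with an adjusted p of 0.0165. Without siNC replicate 2 the edgeR log2 fold change was -0.41 in place of -0.71. SLC2A1, the main glucose importer, was at 77.2, 102 and 116 CPM in siAURKA and 98.1, 201 and 158 CPM in siNC. It was lower in all 3 pairs, by log2 ratios of -0.35, -0.98 and -0.44, but DESeq2 with the replicate block gave an adjusted p of 0.157, and without siNC replicate 2 its log2 fold change was -0.38 in place of -0.63. SLC2A3, a high-affinity glucose importer, was at 41.5, 13.5 and 42.6 CPM in siAURKA and 22.2, 20.7 and 44.9 CPM in siNC, with a higher value in pair 1 and a log2 fold change of 0.15 (SE 0.52). PDK1, the kinase that shuts pyruvate dehydrogenase, was at 38.5, 17.6 and 19.1 CPM in siAURKA and 35.2, 21.6 and 23.1 CPM in siNC, with a log2 fold change of -0.09 (SE 0.41).

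**Figure D3:**
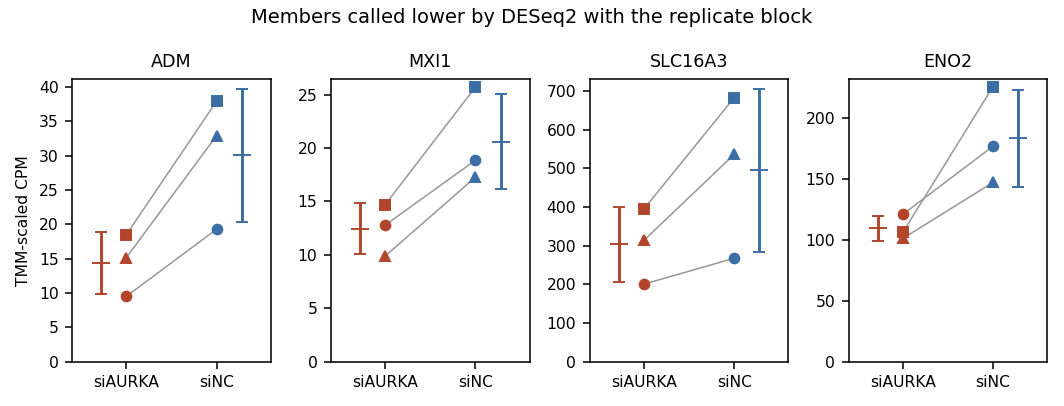
TMM-scaled CPM of the 4 members called by DESeq2 with the replicate block, siAURKA left and siNC right. Grey lines join same-numbered libraries, and the bars beside the points give mean and SD of 3 libraries. Every line slopes up to siNC. For each of the 4 genes, the range of the siNC libraries is wider than the difference between group means, and for SLC16A3 the groups overlap.

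The upper steps of glycolysis were lower for some isoenzymes only. Hexokinases phosphorylate glucose: HK1 was at 364, 378 and 279 CPM in siAURKA replicates 1, 2 and 3, against 359, 844 and 384 CPM in siNC. Only siNC replicate 2 lay far from the others, and without it the log2 fold change of HK1 was -0.12 in place of -0.64. HK2, the hexokinase typical of proliferating cells, was at 84.6, 42.4 and 36.9 CPM in siAURKA and 67.1, 66.6 and 43.1 CPM in siNC. GPI, which converts glucose-6-phosphate to fructose-6-phosphate, was at 338, 691 and 446 CPM in siAURKA and 362, 935 and 549 CPM in siNC. It was lower in all 3 pairs, by log2 ratios of -0.10, -0.44 and -0.30, but its log2 fold change was 0.11 when siNC replicate 2 was left out. That fit kept siAURKA replicate 2, the highest of the siAURKA libraries for GPI. PFKFB4 and PFKFB3 make the activator of phosphofructokinase. PFKFB4 was at 30.3, 46.6 and 35.4 CPM in siAURKA and 36.6, 84.4 and 54.2 CPM in siNC, lower in all 3 pairs, and its log2 fold change of -0.64 (SE 0.38) was -0.28 when siNC replicate 2 was left out. PFKFB3 was at 27.6, 12.3 and 13.9 CPM in siAURKA and 26.5, 67.9 and 14.6 CPM in siNC. Its log2 fold change of -1.01 rested on siNC replicate 2, without which it was -0.19.

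Phosphofructokinase, the committing step, had members in both directions. PFKL, the liver-type subunit, was at 194, 389 and 247 CPM in siAURKA replicates 1, 2 and 3, against 116, 349 and 216 CPM in siNC. It was higher in all 3 pairs, by log2 ratios of 0.74, 0.16 and 0.20. Its log2 fold change of 0.29 (SE 0.46) was -0.04 without siAURKA replicate 2 and -0.02 without siNC replicate 1. Those fits kept siNC replicate 2, the highest siNC library, and siAURKA replicate 1, the lowest siAURKA library, respectively. PFKP, the platelet-type subunit, was at 212, 316 and 262 CPM in siAURKA and 222, 413 and 321 CPM in siNC, lower in all 3 pairs, with a log2 fold change of -0.27 that was -0.04 without siNC replicate 2. PFKM, the muscle-type subunit, was at 97.5, 92.9 and 102 CPM in siAURKA and 105, 112 and 122 CPM in siNC. PFKM values did not overlap, but the difference was small, with a log2 fold change of -0.21 (SE 0.25). Exonic length here is the union of all annotated exons of a gene, so shares per kilobase are not shares of transcript molecules. Per kilobase of exonic length, PFKP made up 55.6%, 53.7% and 56.6% of the summed level of the 3 subunits in siAURKA and 62.7%, 61.1% and 61.9% in siNC. PFKL made up 27.6%, 35.8% and 28.9% in siAURKA and 17.8%, 27.96% and 22.5% in siNC. The PFKP share was thus lower in every siAURKA library than in any siNC library.

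The enzymes differed widely in level, and values per kilobase depend on the annotated exonic length. Per kilobase of exonic length, GAPDH averaged 3816 CPM in siAURKA and 3968 CPM in siNC, ENO1 909 CPM in siAURKA and 1068 CPM in siNC, and TPI1 637 CPM in siAURKA and 808 CPM in siNC. On the same scale LDHA averaged 119 CPM in siAURKA and 195 CPM in siNC, and LDHB 197 CPM in siAURKA and 187 CPM in siNC.

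Aldolases and triose phosphate isomerase split fructose bisphosphate and interconvert the products. ALDOC was at 53.4, 108 and 109 CPM in siAURKA replicates 1, 2 and 3, against 70.1, 141 and 155 CPM in siNC, with log2 ratios of -0.39, -0.39 and -0.50. It was lower in all 3 pairs by nearly the same amount, although the groups overlapped. DESeq2 with the replicate block gave ALDOC an adjusted p of 0.155, and its edgeR log2 fold change of -0.43 ran from -0.71 to -0.17 with 1 library left out. ALDOA, whose exonic bases lie to 53.5% in exons of other genes, was at 594, 1555 and 872 CPM in siAURKA and 561, 2035 and 1078 CPM in siNC. TPI1 was at 1221, 1802 and 2137 CPM in siAURKA and 1162, 2647 and 2739 CPM in siNC. Both were slightly higher in pair 1 and lower in pairs 2 and 3, where TPI1 had log2 ratios of -0.55 and -0.36.

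In the lower steps, the most abundant enzyme, GAPDH, differed little between the groups, and ENO2 was lower by more than ENO1. GAPDH was at 6291, 15184 and 12651 CPM in siAURKA replicates 1, 2 and 3, against 7231, 13509 and 14743 CPM in siNC. Both number 1 libraries were lowest in GAPDH, and its log2 fold change was -0.06 (SE 0.41). PGK1, which makes the first ATP of the pathway, was at 746, 896 and 822 CPM in siAURKA and 753, 1297 and 1149 CPM in siNC. It was lower in all 3 pairs, but its log2 ratio was -0.01 in pair 1, against -0.53 in pair 2 and -0.48 in pair 3, and its log2 fold change of -0.38 was -0.21 without siNC replicate 2. PGAM1, the mutase after PGK1, was at 450, 589 and 593 CPM in siAURKA and 418, 602 and 615 CPM in siNC, with overlapping groups. ENO1, the ubiquitous enolase, was at 2757, 6910 and 4725 CPM in siAURKA and 3087, 7260 and 6558 CPM in siNC. Pyruvate kinase PKM, the last step to pyruvate, was at 1917, 3339 and 3215 CPM in siAURKA and 2249, 3615 and 3892 CPM in siNC. Both genes were lower in all 3 pairs, ENO1 by log2 ratios of -0.16, -0.07 and -0.47 and PKM by -0.23, -0.11 and -0.28. The groups overlapped, and without siAURKA replicate 1 the log2 fold change was 0.04 for ENO1 and 0.004 for PKM. That fit kept siNC replicate 1, the lowest siNC library for both genes. ENO2, the enolase known from neurons (ENSG00000111674, chromosome 12), was at 121, 106 and 101 CPM in siAURKA and 177, 226 and 147 CPM in siNC. All siAURKA values of ENO2 were below all siNC values, with log2 ratios of -0.55, -1.09 and -0.54 and a log2 fold change of -0.74 (SE 0.28). DESeq2 with the replicate block gave ENO2 an adjusted p of 0.0311, and leaving out 1 library kept its log2 fold change between -0.87 and -0.56.

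Lactate dehydrogenase converts pyruvate to lactate. LDHA was lower in all 3 pairs, and LDHB had no clear direction. LDHA, the subunit favoured in lactate production, was at 712, 719 and 783 CPM in siAURKA replicates 1, 2 and 3, against 906, 747 and 1989 CPM in siNC. siNC replicate 3 was far above the other 5 libraries, and without it the log2 fold change of LDHA was -0.16 in place of -0.72. Pair log2 ratios of LDHA were -0.35, -0.05 and -1.34. LDHB, the subunit of oxidative tissues, was at 511, 589 and 661 CPM in siAURKA and 512, 435 and 729 CPM in siNC. Pair log2 ratios of LDHB were -0.002, 0.44 and -0.14. The log2 fold change of LDHB was 0.07 (SE 0.30), and -0.08 without siNC replicate 2. Per kilobase of exonic length, LDHA made up 40.1%, 37.0% and 36.3% of the summed level of the 2 subunits in siAURKA and 46.0%, 45.2% and 56.7% in siNC. LDHA counts exceeded LDHB counts in every library, by ratios of 1.18 to 1.39 in siAURKA and 1.72 to 2.73 in siNC. Which subunit is the larger therefore depends on the length used. The LDHA share was lower in every siAURKA library than in any siNC library. A share within a library needs no scaling between libraries, but LDHB shares 33.4% of its exonic bases with exons of other genes.

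Ratios of paralogues were compared for 10 gene pairs. The ratio of LDHA to LDHB counts averaged 1.27 ± 0.111 in siAURKA and 2.07 ± 0.57 in siNC (SD, n = 3), and that of PFKL to PFKP averaged 1.03 ± 0.175 in siAURKA and 0.680 ± 0.161 in siNC. Groups did not overlap for these 2 ratios and overlapped for the other 8. A two-sided exact permutation test gave p = 0.1 for both ratios, the smallest that 3 against 3 libraries allow, and 0.5 after Benjamini-Hochberg adjustment over the 10. The ratio of ENO2 to ENO1 was lower in all 3 pairs, by 0.39, 1.02 and 0.07 on the log2 scale, and the exact permutation p was 0.4. Pseudogenes named after members could take reads from them: the table lists 62 for GAPDH, 39 for BNIP3 and 13 for PGAM1. Their summed levels came to at most 0.065% of GAPDH, 1.16% of BNIP3 and 0.894% of PGAM1 in any library.

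**Figure D4:**
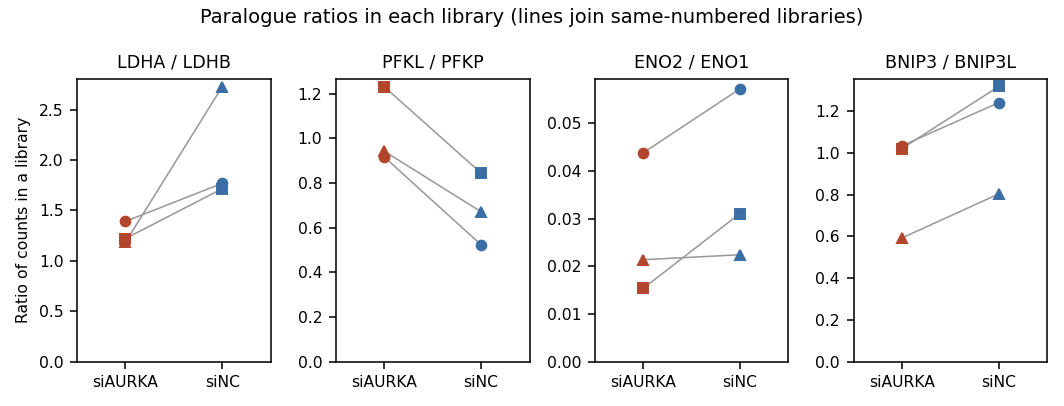
Ratio of the counts of 2 paralogues within each library, siAURKA left and siNC right, with grey lines between same-numbered libraries. LDHA over LDHB is lower, and PFKL over PFKP higher, in every siAURKA library than in any siNC library, while ENO2 over ENO1 and BNIP3 over BNIP3L overlap between the groups.

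Non-metabolic HIF targets and glycolytic enzymes had similar medians. The 10 tested non-metabolic targets had a median log2 fold change of -0.30, with 8 below 0 and 5 lower in all 3 pairs. The 19 glycolytic enzymes had a median of -0.28, with 17 below 0 and 10 lower in all 3 pairs. Over all tested genes the median was -0.01, with 51.5% below 0, and over genes at a mean of 100 CPM or more it was -0.06, with 59.9% below 0. The non-metabolic targets ran from -1.06 (ADM) to 0.75 (ANKRD37), and the glycolytic enzymes from -1.01 (PFKFB3) to 0.29 (PFKL). Medians by pair were -0.16, -0.29 and -0.17 for the non-metabolic targets and -0.07, -0.39 and -0.30 for the glycolytic enzymes in pairs 1, 2 and 3, against -0.02, 0.03 and 0.003 over all tested genes. Without siNC replicate 2 the medians were -0.13 and -0.12, and without siNC replicate 1 they were -0.52 and -0.57. These unpaired fits, too, kept the same-numbered partner of the library left out. Median transcript GC content was 53.3% for the glycolytic enzymes and 46.9% for the non-metabolic targets, against 48.9% over all tested genes. The highest mean GC content of a library was that of siNC replicate 2. The part of GC content in these values was not tested. After TMM scaling, transcripts of the 19 glycolytic enzymes summed to 16721.7, 33765.6 and 28092.3 CPM in siAURKA replicates 1, 2 and 3. The sums in siNC were 18422.0, 35382.8 and 35496.5 CPM. Each siAURKA sum was lower than that of its numbered partner, and the number 1 libraries were lowest in both groups. In pair 2 that order holds only with the TMM factors, 0.9688 in siAURKA replicate 2 and 0.8975 in siNC replicate 2.

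**Figure D5:**
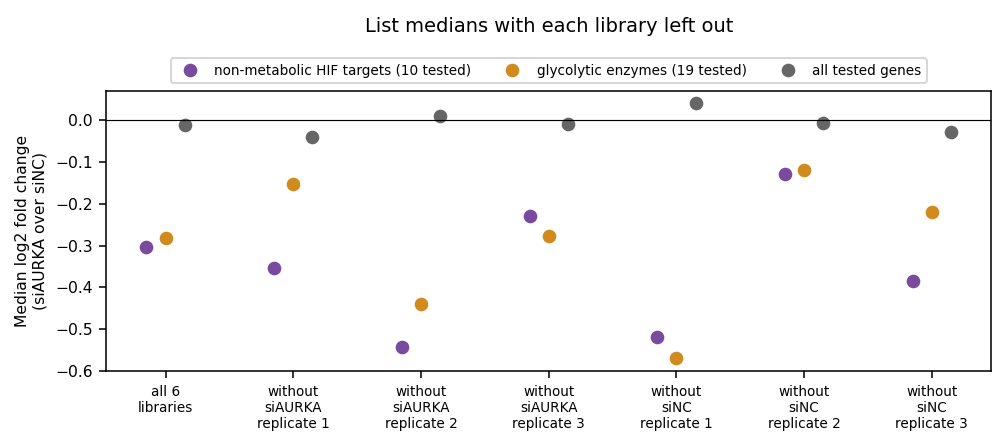
Median log2 fold change, siAURKA over siNC, of the non-metabolic HIF targets, the glycolytic enzymes and all tested genes. Unpaired fits used all 6 libraries or left out each library in turn. Both list medians stay below 0 throughout, nearest to 0 without siNC replicate 2 (-0.13 and -0.12), and the median of all genes stays between -0.04 and 0.04.

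Further HIF targets were more often lower, in a list compiled by function but with earlier results of these data known. Of 22 further HIF targets, all tested, 18 had a log2 fold change below 0 and 8 were lower in all 3 pairs (36.4%, against 17.6% of all tested genes), with a median of -0.26. In all 3 pairs, 2 of the 22 were higher (9.09%, against 17.9% of all tested genes). These were WSB1 and ERO1A, named after their values were seen. Pair log2 ratios were 0.36, 0.84 and 0.27 for WSB1 and 0.36, 0.19 and 0.38 for ERO1A. DESeq2 with the replicate block called 3 of the 22 lower and 0 higher, against 0.81% lower and 0.501% higher of all tested genes. edgeR with the block called none of the 3, with adjusted p-values from 0.478 to 0.569. Adenylate kinase 4 (AK4) was at 9.34, 7.87 and 2.96 CPM in siAURKA replicates 1, 2 and 3, against 16.6, 15.2 and 7.56 CPM in siNC, with an adjusted p of 0.00899 by DESeq2 with the block. Stanniocalcin 2 (STC2), a secreted glycoprotein, was at 50.8, 70.2 and 33.0 CPM in siAURKA and 72.0, 110 and 82.9 CPM in siNC, with an adjusted p of 0.0338 by the same test. STC2 did not overlap between the groups, nor did PPFIA4, at 17.6 to 20.9 CPM in siAURKA and 26.7 to 34.0 CPM in siNC. The third call, named after its values were seen, was ANGPTL4, a secreted lipase inhibitor, at 1.62, 26.9 and 0.957 CPM in siAURKA and 3.87, 82.7 and 2.80 CPM in siNC. Both number 2 libraries were high in ANGPTL4, and it was lower in all 3 pairs. Its edgeR log2 fold change was -1.60, but 1.55 when siNC replicate 2 was left out and -4.52 when siAURKA replicate 2 was.

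Of 14 further regulators of HIF, 13 were tested, with a median log2 fold change of -0.10. Their medians by pair were -0.17, 0.008 and -0.05 in pairs 1, 2 and 3. In all 3 pairs, 3 were lower (23.1%, near the 17.6% of all tested genes) and 1 higher (7.69%, against 17.9%). CITED2, a HIF target that competes with HIF for the coactivators EP300 and CREBBP, was at 50.7, 86.2 and 55.2 CPM in siAURKA replicates 1, 2 and 3, against 74.4, 126 and 110 CPM in siNC. DESeq2 with the replicate block gave CITED2 an adjusted p of 0.0197, against 0.552 by edgeR with the block. CITED2 was the 1 regulator of the 13 that DESeq2 with the block called, against 1.31% of all tested genes (0.81% lower). The hydroxylase EGLN2 had a log2 fold change of -0.41 and HIF1AN, the asparaginyl hydroxylase that blocks HIF activity, -0.27, both lower in all 3 pairs. EGLN2 had -0.08 without siNC replicate 3, and HIF1AN had -0.10 without siNC replicate 1. Among 20 further glycolytic isoenzymes and transporters, 14 were tested, with a median of -0.09 and 0 called by edgeR or DESeq2 with or without the block. The log2 fold change of SLC2A8 was -0.49 (-0.02 when siNC replicate 2 was left out), that of the muscle enolase ENO3 was -0.40 (-0.10 without siNC replicate 3, -1.06 without siAURKA replicate 3), and that of the pyruvate and lactate transporter SLC16A7 was -1.10 (0.66 without siNC replicate 1).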

How the data were processed

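The authors deposited 1 table of whole numbers for 58243 Ensembl genes, read here as estimated counts without scaling. In each library, 30.3% to 34.0% of the low values (1 to 24) were multiples of 4, against 25% under equal use, so 1 fragment may be worth about 4 units. Per the submitters' processing notes, HISAT2 and the build GRCh38 were used. How fragments were assigned to genes, with which annotation and whether by strand, is not given in the sources used here, so overlapping and antisense genes are uncertain. Gene names came from GENCODE release 29 by unversioned identifier; 263 identifiers had none, holding at most 0.0292% of a library. The values are whole, so rounding altered nothing.

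Genes were kept by filterByExpr (18775). Group differences (siAURKA over siNC, no covariate) were tested with edgeR's quasi-likelihood test after TMM scaling, with p-values adjusted by Benjamini-Hochberg over all tested genes and called at 0.05. Standard errors of edgeR log2 fold changes are the fold change divided by the root of the F statistic. Pair ratios used a pseudocount of 0.5 CPM. Exonic length is the union of the exons of all annotated transcripts of a gene. Overlap is the share of a gene's exonic bases inside exons of other genes, and GC content is that of the longest transcript. Deviations of log2 CPM from group means correlated at 0.775, 0.604 and 0.433 between same-numbered libraries, so numbers were taken to pair the libraries. This pairing comes from the data, since no shared day or batch is labelled. Every member was named. Members lower or higher in all 3 pairs, with separate groups or with large changes were described in full, and context lists by up to 3 tested genes with the smallest p. One gene of the pathway lists is not reported here. The members and lists were chosen with earlier results of these data known. The fits were tested on simulated data. Fits used edgeR 4.0.16 and DESeq2 1.42.0 in R 4.3.3, and tables used Python 3.11.15. Alternatives were RLE scaling, DESeq2, the replicate block, 2 other filters, counts divided by 4 and leaving out each library.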

Additional observations from a re-analysis of the deposited data

How the results depend on the processing

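Of 252 member log2 fold changes under other scalings, filters, tools, the replicate block or counts divided by 4, 6 changed sign. With 1 library left out, 37 of 216 did, 11 of them without siNC replicate 2. These fits were unpaired and kept the same-numbered partner, so a sign change can also come from differences between numbers. In all, 19 of the 36 tested members kept their sign under every setting tried, 18 of them below 0. Among the members and the other genes named, the sign changes outside leaving out a library were in KDM3A (-0.0074 with RLE scaling, -0.0074 with DESeq2 and -0.00040 with at least 10 counts in every library of a group), BNIP3L (0.011 without a filter), PGAM1 (0.0085 with edgeR and the replicate block, 0.031 without a filter) and SLC16A7 (0.0075 with DESeq2 and the replicate block). With 1 library left out the values ran from -0.46 to 0.93 for HIF1A, -0.41 to 0.068 for EPAS1, -0.17 to 0.36 for ARNT, -0.79 to 0.30 for NDRG1, -0.24 to 0.20 for BNIP3L, -0.36 to 0.44 for KDM3A, -0.092 to 0.61 for SLC2A3, -0.55 to 0.17 for PDK1, -0.58 to 0.10 for HK2 and -0.65 to 0.11 for GPI. They ran from -0.035 to 0.74 for PFKL, -0.74 to 0.30 for ALDOA, -0.32 to 0.23 for GAPDH, -0.16 to 0.11 for PGAM1, -0.59 to 0.039 for ENO1, -0.41 to 0.0040 for PKM, -0.076 to 0.32 for LDHB, -1.66 to 0.66 for SLC16A7, -0.40 to 0.20 for TKT, -4.52 to 1.55 for ANGPTL4, -0.44 to 0.027 for TALDO1 and -0.47 to 0.00038 for PDK2. With 1 library left out, list medians ran from -0.54 to -0.13 for the non-metabolic HIF targets and -0.57 to -0.12 for the glycolytic enzymes. Over all genes, edgeR called 0, DESeq2 17 and DESeq2 with the replicate block 246, while edgeR with 1 library left out called 0 to 2. Members called numbered 0 by edgeR under every setting tried, and 4 by DESeq2 with the replicate block. Chosen after seeing the data, that fit called 0 to 3 members with 1 pair left out, and 20 to 26 members were lower in both other pairs (17 in all 3). The replicate block changed no call of edgeR. The causes were not tested. CA9 and EGLN3 entered only the edgeR fit without a filter, which did not call them (adjusted p 0.9999 each).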

Other observations

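Pathways that branch from glycolysis had medians nearer to 0. Across 6 genes of the pentose phosphate pathway the median log2 fold change was -0.08, and 1 gene was lower in all 3 pairs. Transketolase (TKT) was at 199, 350 and 331 CPM in siAURKA replicates 1, 2 and 3, against 182, 446 and 328 CPM in siNC, with overlapping groups. TALDO1, the transaldolase, was lower in all 3 pairs (log2 fold change -0.20), while RPIA, the ribose phosphate isomerase, had 0.46 and was higher in all 3. The 12 genes of pyruvate dehydrogenase and pyruvate import had a median of 0.01, with 5 below 0. The import subunit MPC1 had 0.35, DLAT 0.35 and the kinase PDK2 -0.23. The 9 genes of glycogen metabolism had a median of -0.05, with phosphoglucomutase PGM1 at -0.42 and the glycogen primer GYG1 at -0.41, each lower in all 3 pairs, and PYGM at 0.86 from levels of 0.253 to 1.47 CPM in siAURKA and 0.417 to 0.668 CPM in siNC. None of these 27 genes was called by edgeR or DESeq2, with or without the replicate block (DESeq2 with the block gave PYGM no adjusted p).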
